A study of Mus musculus with 2 samples.

Results

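The genes of the oxygen-sensing pathway built on the hypoxia-inducible factors (HIF), together with 2 mitophagy receptor genes that HIF controls, were examined in mouse peritoneal macrophages with and without the growth factor CSF1. The 10 genes were chosen by name for their place in this pathway, with earlier results of these data known. They are the HIF subunit genes Hif1a, Epas1 and Arnt, the oxygen-sensor genes Egln1, Egln2, Egln3 and Hif1an, the ubiquitin ligase gene Vhl, and the receptor genes Bnip3 and Bnip3l. Of these, 9 had at least 1 probe set annotated to that gene alone, 22 probe sets in all, out of 34958 such probe sets for 18194 genes. Bnip3l had none, since its 3 probe sets are annotated to Bnip3l and to the pseudogene Bnip3l-ps as well.

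Macrophages were drawn into the peritoneal cavity of 8-week-old male wild-type C57BL6 mice with thioglycolate medium, an irritant, collected by lavage and cultured. The control sample was left untreated for 12 h and the other sample received 100 ng/ml CSF1 (macrophage colony-stimulating factor, a ligand of the receptor Csf1r) for 12 h. RNA of each sample was hybridised to 1 Affymetrix Mouse Genome 430 2.0 array, so the comparison asks how expression differed between these 2 samples. With 1 array in each group no difference below has a replicate error or a test, and its precision is limited by how few arrays there are. The labels do not say how many animals gave each sample or at what oxygen tension the cells were kept.

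HIF is a pair of an alpha subunit, encoded by Hif1a or Epas1, and the beta subunit encoded by Arnt. When oxygen is plentiful, the prolyl hydroxylases encoded by Egln1, Egln2 and Egln3 mark the alpha subunit, the Vhl protein binds the mark, and the subunit is degraded, while the asparagine hydroxylase encoded by Hif1an limits its activity. When oxygen is scarce, or when inflammatory signals stabilise it, the alpha subunit accumulates and switches on target genes. Egln3 and Bnip3 are themselves well-known targets, and in macrophages Hif1a is known for its role in glycolysis and inflammatory function. Much of this control acts on the protein, which the arrays did not measure.

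HIF binds DNA at a short core, ACGTG or GCGTG, and the promoters of the members were searched for both on both strands. RefSeq promoter windows of the build GRCm38.p6, from 250 bases before to 50 bases after the start, were found for 8 of the 10 genes, with 2 windows for Egln2. The windows below belong to the 3 members with the lowest signal ratios, Bnip3, Egln3 and Hif1a, and to Egln2, the member with the highest ratio. Capitals mark every match to either core, on either strand, and a run of CACGTG holds ACGTG once on each strand.
Bnip3, chr7:138909457-138909756, minus strand: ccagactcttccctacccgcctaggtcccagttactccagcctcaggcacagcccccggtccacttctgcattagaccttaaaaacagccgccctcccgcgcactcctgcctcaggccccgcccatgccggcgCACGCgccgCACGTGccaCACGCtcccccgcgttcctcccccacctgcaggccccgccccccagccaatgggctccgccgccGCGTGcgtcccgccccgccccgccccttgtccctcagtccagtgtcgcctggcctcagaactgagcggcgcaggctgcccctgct
Egln3, chr12:54203825-54204124, minus strand: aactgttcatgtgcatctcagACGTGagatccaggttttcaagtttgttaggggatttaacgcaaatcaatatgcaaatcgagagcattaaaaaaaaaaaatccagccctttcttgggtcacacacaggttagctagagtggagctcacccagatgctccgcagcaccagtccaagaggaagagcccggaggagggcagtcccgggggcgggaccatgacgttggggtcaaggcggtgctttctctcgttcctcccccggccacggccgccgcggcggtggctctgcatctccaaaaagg
Hif1a, chr12:73907617-73907916, plus strand: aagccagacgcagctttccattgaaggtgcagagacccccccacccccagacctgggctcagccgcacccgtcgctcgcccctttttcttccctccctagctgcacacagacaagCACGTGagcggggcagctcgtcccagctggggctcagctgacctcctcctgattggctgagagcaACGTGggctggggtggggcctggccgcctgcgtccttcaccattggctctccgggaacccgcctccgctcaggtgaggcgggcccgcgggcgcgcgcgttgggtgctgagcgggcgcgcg
Egln2, chr7:27166753-27167052, minus strand: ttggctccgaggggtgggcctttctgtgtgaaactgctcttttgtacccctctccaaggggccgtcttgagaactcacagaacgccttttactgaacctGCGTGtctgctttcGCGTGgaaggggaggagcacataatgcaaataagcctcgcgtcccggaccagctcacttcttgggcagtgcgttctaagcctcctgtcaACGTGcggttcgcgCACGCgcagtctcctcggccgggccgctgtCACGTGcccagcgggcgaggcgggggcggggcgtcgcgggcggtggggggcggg

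The Bnip3 window held 5 matches, of which 4 stood close together between positions -117 and -99, counted from the start site. At least 5 matches were found in 1.66% of all 32851 promoter windows of this length. The Egln3 window held 1 match, at position -229, and the Hif1a window 3, at -135, -134 and -70. The Egln2 window shown held 6 matches, a number reached by 0.694% of all windows, and this gene had the highest ratio among the members. Across these windows, chosen by ratio, the number of matches did not follow the order of the ratios. Whether the matches bear on the ratios was not tested.

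ACGTG was present in 5 of the 9 member windows, 1 each of Bnip3, Egln1, Egln2, Egln3 and Hif1a, and in 19.6% of all windows. GCGTG was also present in 5, those of Arnt, Bnip3, Egln1 and both of Egln2, and in 32.4% of all windows. The windows of Vhl and Hif1an held neither. CACGTG was present in those of Bnip3, Egln2 and Hif1a and in 7.15% of all windows. A match is a description of the letters only, and these data hold no measurement of binding.

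**Figure D1:**
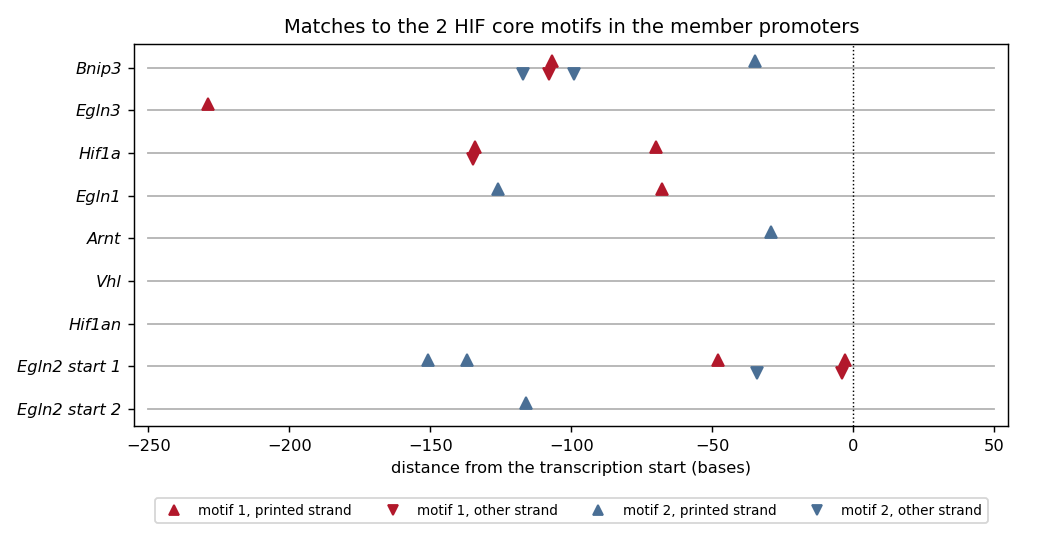
Positions of the core motifs in the promoter windows of 8 member genes, in bases from the transcription start; motif 1 is ACGTG and motif 2 is GCGTG, and triangles pointing up or down stand for the printed or the other strand. Bnip3 has 4 of its 5 matches between -117 and -99, Egln2 has 6 at its first start, and Vhl and Hif1an have none.

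Across the pathway, the clearest differences lay in Bnip3, Egln3 and Hif1a, all lower on the CSF1 array, while the other members were within 1.5-fold. Bnip3 was 2.42-fold lower, Egln3 2.32-fold and Hif1a 1.67-fold, each on the brightest probe set of the gene. Of the 9 members measured, 2 were at least 2-fold lower and 0 at least 2-fold higher. Over all 10602 genes measured, 0.632% were at least 2-fold lower and 0.811% at least 2-fold higher. At a 1.5-fold threshold 3 members were lower and 0 higher, against 4.91% and 5.43% of all genes. The members were chosen with earlier results of these data known, so these shares are not an independent comparison. The median log2 ratio of CSF1 over control was -0.12 over the members and 0.00 over all genes measured. Of the members 5 (55.6%) were below 0 and 4 above, against 49.7% of all measured genes below 0. Centring on the hybridisation spikes would raise all ratios by 0.29 and leave 0 members at least 2-fold lower.

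A gene counted as measured when its signal exceeded a background level of 155 units on at least 1 array. Signals are deposited intensities on a linear scale, and the background level was taken from genes of unrelated tissues. All 9 members passed on both arrays with their brightest probe set, and so no member passed through 1 array alone. Of the 22 probe sets, 16 exceeded this level with and without CSF1, 3 without CSF1 alone and 3 in neither sample. Of the 19 that exceeded it at all, 2 were at least 2-fold lower and 0 at least 2-fold higher, against 0.788% and 0.822% of all such probe sets. Because probe sets differ in brightness for reasons of design, their signals are compared between arrays and not between genes.

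**Figure D2:**
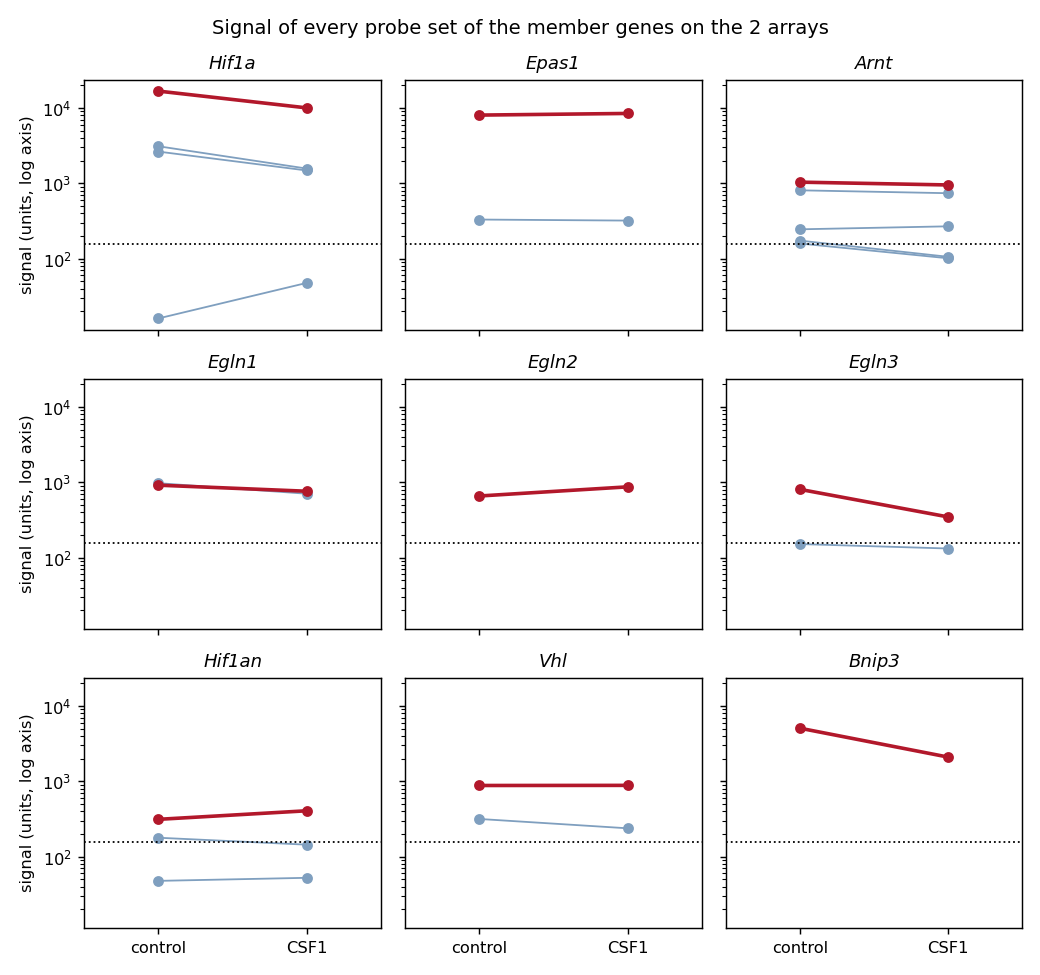
Signal in units, on a log axis, of all 22 probe sets of the 9 members on the control and CSF1 arrays; each line is 1 probe set, red for the brightest of its gene and blue for the others, and the dotted line is the background level of 155 units. The lines of Bnip3, of the brightest Egln3 probe set and of the 3 bright Hif1a probe sets slope down, and those of Epas1 and the brightest Vhl probe set are nearly flat.

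Hif1a encodes the oxygen-regulated alpha subunit HIF-1alpha. Its brightest probe set read 16713 units without CSF1 and 10004 with it. Its other bright probe sets read 3096 and 1565 units, and 2631 and 1477 units, in the same order. All 3 were thus lower on the CSF1 array, by 1.67-fold, 1.98-fold and 1.78-fold, and their log2 ratios averaged -0.85 ± 0.12 (SD, n = 3 probe sets). This SD covers the disagreement between probe sets, not that between cultures. The pooled SD between probe sets of a gene was 0.28 over 3649 genes. The remaining probe set of Hif1a, at 16.1 and 47.6 units, was under the background level on both arrays and has no usable ratio.

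Among the 9306 genes above background on both arrays, Hif1a had the 197th lowest ratio. The brightest genes ran slightly low as a class: the 379 genes with a mean of at least 10000 units had a median log2 ratio of -0.11. Of the 4166 genes with a mean of at least 1000 units, 1.94% were at least 1.5-fold lower. Among the 379 only Tgm2, named here after its value was seen, was lower than Hif1a. With a loess correction, which removes such a trend with brightness, Hif1a stood at -0.70.

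Epas1 encodes HIF-2alpha, the alpha subunit that shares the partner Arnt. Its brightest probe set read 8026 units without CSF1 and 8442 with it, a log2 ratio of 0.07. The other read 330 and 319 units, and the log2 ratios of the pair averaged 0.01 ± 0.08 (SD, n = 2 probe sets). The 2 alpha subunit genes thus differed from each other: relative to Epas1, Hif1a was 1.76-fold lower on the CSF1 array, a ratio that a common scaling of the arrays cannot alter. No test of this difference can be run with 1 array per group.

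Arnt, the beta subunit, read 1034 units without CSF1 and 949 with it on its brightest probe set, a log2 ratio of -0.12. The 3 of its probe sets that exceeded background with and without CSF1 averaged -0.04 ± 0.15 (SD), and they did not share a direction. On its remaining 2 probe sets Arnt read 159 and 173 units on the control array and was under the background level on the CSF1 array. The ratios of these dim probe sets are bounds of at least 1.02-fold and at least 1.12-fold lower. Arnt therefore showed no difference beyond the disagreement between its probe sets.

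The prolyl hydroxylase genes did not share a direction. Egln3, the family member most strongly induced by HIF in many cell types, read 806 units without CSF1 and 347 with it, 2.32-fold lower and the 19th lowest ratio of 9306 genes. This rests on 1 probe set, since the other Egln3 probe set read 152 and 132 units and was under the background level on both arrays. Egln1 encodes PHD2, the main hydroxylase of HIF-1alpha in most tissues. Its probe sets read 916 and 761 units, and 974 and 705 units, on the control and CSF1 arrays. Both were lower, by 1.20-fold and 1.38-fold, and averaged -0.37 ± 0.14 on the log2 scale (SD, n = 2 probe sets).

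Egln2, which encodes PHD1, had the highest ratio of the members. Its single probe set read 658 units without CSF1 and 870 with it, 1.32-fold higher. Relative to Egln2, Egln3 was 3.07-fold lower on the CSF1 array and Egln1 1.59-fold lower. The order of ratios in the family was thus Egln3, Egln1 and Egln2 from lowest to highest. With 1 array per group, this order has no error between cultures.

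Hif1an encodes FIH, which hydroxylates an asparagine of the alpha subunit and so limits the binding of coactivators. It read 313 units without CSF1 and 407 with it, 1.30-fold higher, on its brightest probe set. A second probe set pointed the other way, with 179 and 144 units, the latter under the background level, a bound of at least 1.15-fold lower. The third was under the background level on both arrays. The direction for Hif1an thus depends on the probe set.

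Vhl encodes the protein that recognises hydroxylated alpha subunits and recruits the ubiquitin ligase. Its brightest probe set read 882 units without CSF1 and 885 with it, a log2 ratio of 0.01. The other read 317 and 238 units, 1.33-fold lower, and the pair averaged -0.20 ± 0.30 (SD, n = 2 probe sets). The ratio of Vhl was therefore within the disagreement of its probe sets.

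Bnip3 encodes a protein of the outer mitochondrial membrane that recruits the autophagy machinery to mitochondria, and it had the lowest ratio of the members. Its single probe set read 5080 units without CSF1 and 2099 with it, 2.42-fold lower. This was the 16th lowest of those 9306 ratios. Of the 4166 genes with a mean of at least 1000 units, a class that takes in Bnip3, 14 (0.336%) were at least 2-fold lower. With 1 probe set there is no SD between probe sets for Bnip3.

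The 3 probe sets annotated to both Bnip3l, the paralog also known as Nix, and the pseudogene Bnip3l-ps cannot be assigned to either. They read 8456, 6565 and 3773 units on the control array. On the CSF1 array they read 6925, 5092 and 2950 units in the same order. All 3 were lower, by 1.22-fold to 1.29-fold, and averaged -0.34 ± 0.04 on the log2 scale (SD, n = 3 probe sets). They are left out of the member counts and medians.

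**Figure D3:**
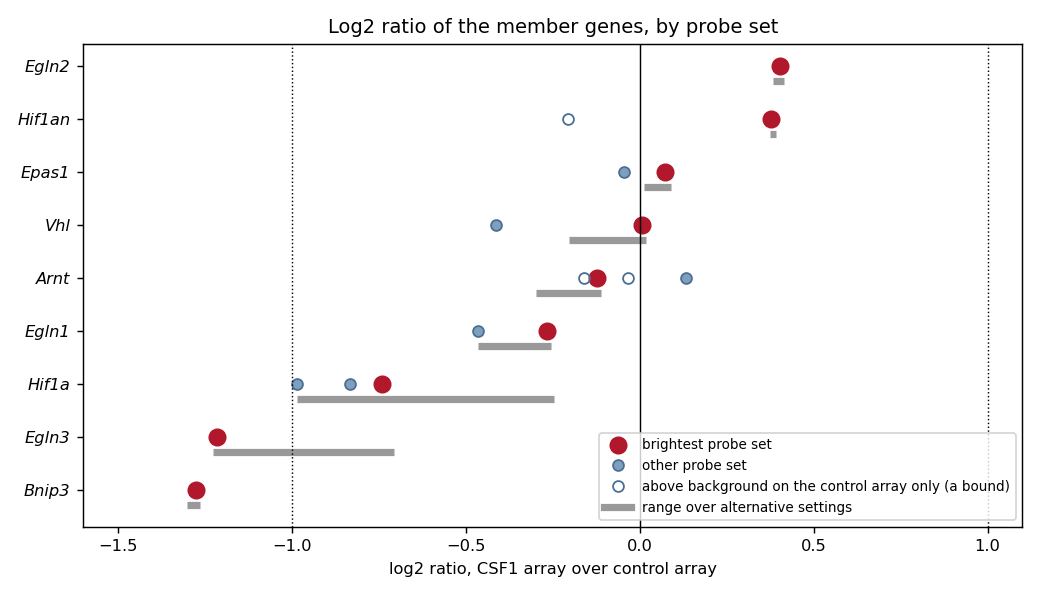
Log2 ratio (CSF1 over control) of each probe set that exceeded background in either sample, by member; the large red point is the brightest probe set, open circles are bounds, dotted lines mark 2-fold, and grey bars span the gene's value over the alternative settings. Bnip3 (-1.28) and Egln3 (-1.22) lie past 2-fold lower, the 3 Hif1a probe sets lie together, and Egln2 (0.40) and Hif1an (0.38) lie highest.

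**Figure D4:**
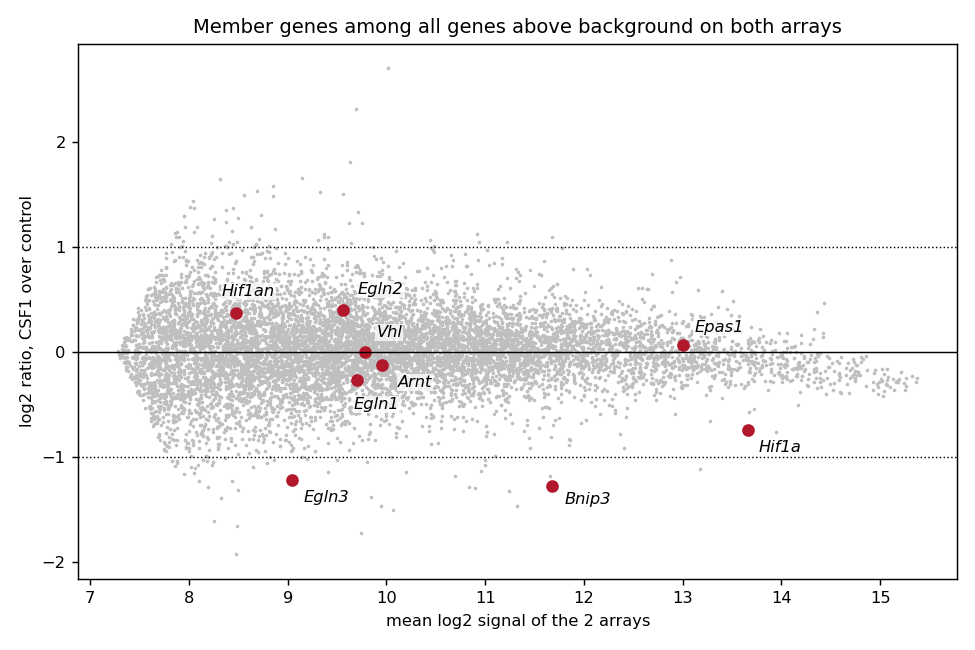
Log2 ratio of CSF1 over control against the mean log2 signal of the 2 arrays, with a grey point for each of 9306 genes that exceeded background with and without CSF1 and the 9 members in red. Bnip3, Egln3 and Hif1a lie at the lower edge of the cloud at their brightness, and the other members lie inside it.

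Other targets of HIF outside glycolysis were mostly lower on the deposited scale as well. Of 39 listed, 35 were measured, of which 26 were below 0 and 9 above, with a median log2 ratio of -0.24. Below 0 were thus 74.3% of them, against 49.7% of all measured genes. After centring on the hybridisation spikes, which raises all ratios alike, 18 of the 35 were below 0, against 18.4% of all measured genes. Past 2-fold, 2 were lower and 0 higher, against 0.632% and 0.811% of all measured genes. At 1.5-fold 6 were lower and 2, Tfrc and Stc2, higher, against 4.91% and 5.43%. A gene under background in 1 sample, such as Stc2, entered with its ratio to the background level, which is a bound. Another probe set of Stc2 pointed the other way, at least 1.41-fold lower. In the list are textbook targets, put together with earlier results of these data known.

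The 2 past 2-fold were Ak4 and Vegfa. Ak4, a mitochondrial adenylate kinase, read 664 units without CSF1 and 326 with it, 2.04-fold lower, and its 2 measured probe sets averaged -1.13 ± 0.14 (SD) on the log2 scale. Vegfa, the vascular growth factor gene, read 1748 and 871 units, 2.01-fold lower, and its 2 probe sets averaged -1.23 ± 0.32 (SD). Zfp292, a zinc finger gene, was at -0.89 on its brightest probe set, but its 4 probe sets had an SD of 0.45. Ankrd37 was at -0.74 on 1 probe set. Tfrc, the transferrin receptor gene and also a HIF target, was the highest of the list at 1.60-fold higher, followed by Plod2, a collagen lysyl hydroxylase, at 0.48 on the log2 scale among genes above background on both arrays. The list thus went both ways, with 26 genes below 0 and 9 above.

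Glycolytic targets of HIF had a median log2 ratio of -0.25 over 22 measured, with 17 below 0 and 5 above, and 0 past 2-fold in either direction. Below 0 were 77.3% of them, against 49.7% of all measured genes. After centring on the hybridisation spikes 10 were below 0, against 18.4% of all measured genes. Several of them had a mean of at least 10000 units, a class of genes whose median log2 ratio was -0.11. Among the glycolytic targets above background with and without CSF1, the glucose transporter gene Slc2a3 was lowest at -0.83. It read 302 units without CSF1 and 170 with it, the latter near the background level. Another of its probe sets was under background with CSF1, a bound of -0.47. Next came the pyruvate dehydrogenase kinase gene Pdk1 at -0.81 and the glycolytic regulator Pfkfb3 at -0.63. The lactate exporter gene Slc16a3 read 245 units without CSF1 and was under background with it, a bound of -0.66. Partners and cofactors of HIF had a median of -0.20 over 14 measured, with 0 past 2-fold. Of these 14, 10 (71.4%) were below 0, against 49.7% of all measured genes. Among them the coactivator genes Crebbp and Ep300 were at -0.46 and -0.43, and Hif3a, a further alpha subunit gene, at -0.39. Subunits of the Vhl ligase and genes of HIF turnover had a median of 0.01 over 11 measured, with none past 1.5-fold. Of these 11, 5 (45.5%) were below 0 and 6 above. The lowest of these were Siah1a at -0.34, whose other 2 probe sets were above 0, the scaffold gene Cul2 at -0.30 and Usp33 at -0.28.

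Mitophagy and autophagy genes had a median of -0.10 over 38 measured, with 25 below 0, 13 above and 0 past 2-fold. Below 0 were 65.8% of them, against 49.7% of all measured genes. The autophagy-initiating kinase gene Ulk1 was lowest, at 545 units without CSF1 and 281 with it, a log2 ratio of -0.96 on 1 probe set. Wipi2 was at -0.75 on its brightest probe set and at 0.48 on another, and Atg7, which activates the ubiquitin-like autophagy proteins, was at -0.67. The LC3 gene Map1lc3b, whose product the mitophagy receptors bind, was at -0.02. The ratio of Bnip3 was lower than that of every listed mitophagy and autophagy gene measured. Genes of the BCL2 family of survival and death regulators had a median of -0.06 over 9 measured, with none past 2-fold. Of these 9, 5 (55.6%) were below 0. The survival gene Bcl2l1 was 1.56-fold higher, although a dimmer probe set read 199 units without CSF1 and was under background with it, while Pmaip1 and Bcl2l11, both pro-death, were at -0.45 and -0.43.

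**Figure D5:**
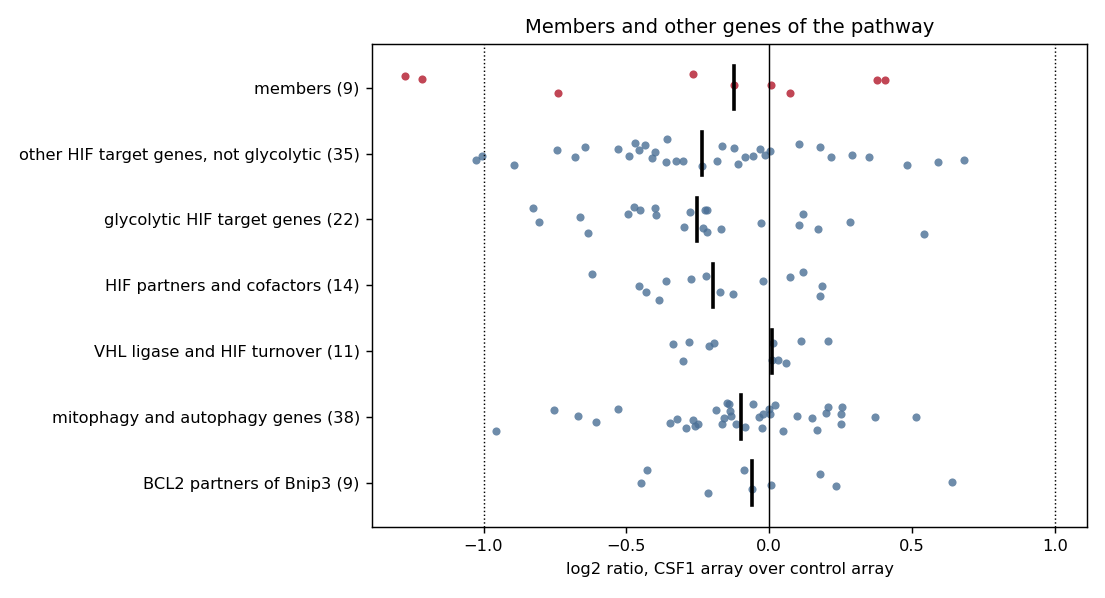
Log2 ratio of CSF1 over control for the members (red) and for each other list of the pathway (blue), 1 point per measured gene, with the number measured in brackets, a black bar at the median and dotted lines at 2-fold. The medians run from -0.25 for the glycolytic targets to 0.01 for the Vhl ligase and HIF turnover, against 0.00 over all measured genes.

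The arrays differed in other respects, whose part in these ratios was not tested. Each held 45101 probe sets and had the same trimmed mean, and 40.3% of them exceeded background without CSF1 and 38.9% with it. The 18 hybridisation spike probe sets averaged -0.29 ± 0.13 (SD over spikes) on the log2 scale. If the arrays were centred on them, the median of all genes would shift by 0.28. Arnt and Egln1, at 0.17 and 0.03, would then lie above 0, leaving 3 of 9 members below 0, against 18.4% of all measured genes. Bnip3 and Egln3 would stand at -0.98 and -0.92, so that 0 members would be 2-fold lower, and Hif1a at -0.45. For Actb the 3′ signal over the 5′ signal, a sign of RNA integrity, was 1.35 without CSF1 and 1.38 with it, and for Gapdh it was 1.03 and 1.40.

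All 9 macrophage markers were measured, with a summed signal of 172589 units without CSF1 and 141695 with it, a log2 ratio of -0.28. Markers of fibroblasts and mesothelium were measured for 6 of 8, with Msln and Krt19 under background, and their summed signal had a log2 ratio of 0.34. Markers of NK cells were measured for 3 of 4 (Gzma, Klrk1 and Eomes, with Ncr1 under background), with a log2 ratio of -1.25. Of the markers with a probe set, those of T cells (4 of 6 measured), B cells (4 of 5), neutrophils (2 of 6) and eosinophils and mast cells (4 of 7) had summed log2 ratios of 0.03, -0.21, -0.16 and -0.26. Those of dendritic cells and of endothelium and red cells had 1 of 4 measured each (Zbtb46 and Kdr), with summed log2 ratios of -0.91 and -0.25. Each sum takes in every marker with a probe set, including those under background, whose values were not raised to that level. Where few markers were measured, such values form part of the ratio. In RNA of whole cultures, fewer cells of a type and less RNA per cell cannot be told apart.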

How the data were processed

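Expression was measured on 2 arrays, 1 of untreated and 1 of CSF1-treated macrophages, grouped by the labels. Each probe set has 1 deposited intensity on a linear scale, made with GeneSpring 6.2 per the labels' design text. How probes were summarised is not stated in the sources used here. With the top and bottom 2% of values removed, the arrays had the same mean, and no scaling was added.

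Values were taken to log2. Each gene stood by the brightest of its probe sets annotated to 1 symbol. The background level, 155 units, was the 90th percentile of the values for 80 genes typical of other tissues (132 probe sets). A few of these, such as Mbp and Oxt, were well above it. Values under it were raised to it for ratios, except in the summed marker signals. The Entrez IDs of the 9 members with probe sets matched a RefSeq gene table. Probe sets ending in _s_at, _x_at or _a_at, such as the brightest of Hif1a, can match several transcripts.

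Having 1 array in each group, the comparison allowed neither a test nor a standard error. The members and lists were chosen with earlier results of these data known. From the other lists, genes past 2-fold were named and, besides them, the 3 largest absolute ratios of genes measured with and without CSF1. The genes nearest in level to Bnip3 and Egln3, also fixed for naming, are not given, since levels of different probe sets are not comparable. Tgm2, Map1lc3b, Slc16a3, Stc2, Plod2 and, in the 1.5-fold count, Tfrc were picked after their values were seen. The code was tested on simulated data. The tools were pandas 2.3.3, numpy 2.4.6 and statsmodels 0.14.6 for the values, scipy 1.17.1 for the trimmed mean and matplotlib 3.10.9 for the plots, under Python 3.11.15.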

Additional observations from a re-analysis of the deposited data

How the results depend on the processing

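Alternatives were 4 other scalings (quantile, median, spikes, loess with a span of 0.3), 3 other background levels, 3 other choices of probe set, only genes above background on both arrays, 2 other fold thresholds and, chosen after seeing the data, the probe sets of Bnip3l and Bnip3l-ps taken as Bnip3l. Values under another scaling are relative to the shift it gave the median of all genes, 0.28 for the spikes, so median and spike centring can barely move them. Without that adjustment, spike centring ended both 2-fold calls, with Bnip3 at -0.98, Egln3 at -0.92 and 0 members and 0 other HIF targets at least 2-fold lower. With it, Bnip3 lay between -1.30 and -1.26 under the 12 that recompute a gene. Bnip3 has 1 probe set, above every background level used, so only the scalings could move its value. For Egln3, only the scalings and the mean of all probe sets could do so. Egln3 was past 2-fold under 11 and came to -0.71 with that mean, which takes in its probe set under background. Hif1a ranged from -0.98 to -0.25, the latter for the same reason. Vhl changed sign under 3. The median of the members ranged from -0.27 to -0.11. The -0.27 came with the mean of all probe sets, under which Hif1an fell below background and 8 members were measured. The count of members at least 2-fold lower, 2 as reported, was 1 of these 8 with that mean and 0 at 3-fold. That of other HIF targets, also 2, was 1 with the spikes or the mean of all probe sets, 4 with no background level, 6 at 1.5-fold and 0 at 3-fold. Their median ranged from -0.33 to -0.14. No paired analysis was possible because each group has 1 sample, and no sample can be left out.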
